A study of Mus musculus with 20 samples.

Results

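Hepatocytes take up, store and release iron and also make hepcidin, the hormone that sets how much iron enters the blood, and the mRNAs of the genes that do this were followed in livers in which the RNA-binding protein HuR had been knocked down. The genes were chosen by name: HAMP (hepcidin), BMP6, HFE, TFR2, TFRC, FTH1, FTL (Ftl1 in the mouse), SLC40A1 and CP. All 9 names were found in both deposited tables of TPM (a transcript level per length and per library total), so that the set held 18 entries of 115942, 9 of 60607 human genes in livers of humanized mice and 9 of 55335 mouse genes in livers of wild-type (WT) mice. The rule that defines the set uses names alone, though it was drawn up with earlier results of these data known.

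RNA was sequenced from 20 livers in 4 groups. Humanized mice were TK-NOG mice, which carry a herpes simplex virus thymidine kinase transgene driven by the mouse albumin promoter on an immunodeficient NOG background; ganciclovir at 25 mg/kg was given at 8 to 9 weeks of age to remove host hepatocytes, primary human hepatocytes from a small number of donors were transplanted, and animals with serum human albumin above 0.5 mg/ml were used 8 to 12 weeks later. WT mice were male C57BL/6 mice bought at 8 weeks of age. Mice of both kinds received 2000000000 plaque forming units of adenovirus by vein, either with a short hairpin RNA against HuR (HuR KD) or a control virus (LacZ). The short hairpin RNA against human HuR was given to humanized mice, and another sequence, against mouse HuR, to WT mice. Livers were collected on day 7 after a 4 h fast, from 4 HuR KD and 4 LacZ humanized mice and from 6 HuR KD and 6 LacZ WT mice. All mice thus carried an adenovirus. In the humanized livers the endothelial, Kupffer and stellate cells are those of the mouse host, and only the human genes were tabulated.

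Iron bound to transferrin enters cells through transferrin receptor 1 (TFRC), surplus iron is kept inside shells built from ferritin heavy chain (FTH1) and light chain (FTL), and ferroportin (SLC40A1) is the exporter that hepcidin removes from the cell surface. In the liver, BMP6 from endothelial cells signals through SMAD proteins to raise hepcidin, and HFE and transferrin receptor 2 (TFR2) take part in sensing iron-loaded transferrin. When iron is scarce, iron regulatory proteins bind hairpins called iron responsive elements, which blocks translation of ferritin and ferroportin mRNA and protects TFRC mRNA from decay. HuR binds uridine-rich and AU-rich stretches of mRNA and is best known for stabilizing the transcripts it binds.

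The hairpins are shown because they set apart the members whose mRNA the cell itself reads for iron. In GENCODE M21 mouse transcripts (GRCm38) a search was made for a C, 5 bases, CAGTGN in which the last base was not G, and 5 bases that could pair with the first 5, with at least 3 of the 4 pairs below the bulged C also able to form. It found 7 windows in 4 of the members and a match in 36 of 21901 protein-coding genes, or 0.164%. Ferritin, ferroportin and TFRC mRNAs were known to hold these elements, as given above. The search therefore only locates them, and its matches are no test of enrichment. Each window is given 5′ to 3′ on the transcript strand, with the loop in capitals. The Fth1 window lies in the 5′ UTR at chr19:9982731-9982760 on the plus strand, that of Ftl1 in the 5′ UTR at chr7:45459779-45459808 on the minus strand, and that of Slc40a1 in the 5′ UTR at chr1:45925465-45925494 on the minus strand. The 4 Tfrc windows lie in the 3′ UTR on the plus strand of chromosome 16, at 32631218-32631247, 32631597-32631626, 32631662-32631691 and 32631709-32631738.
Fth1: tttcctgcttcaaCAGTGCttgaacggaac
Ftl1: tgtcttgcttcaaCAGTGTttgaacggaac
Slc40a1: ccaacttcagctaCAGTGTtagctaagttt
Tfrc, the first window: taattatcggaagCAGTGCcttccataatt
Tfrc, the second window: acattatcgggagCAGTGTcttccataatg
Tfrc, the third window: tctatatcggagaCAGTGAtctccatatgt
Tfrc, the last window: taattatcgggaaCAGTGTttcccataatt
No window of this form was found in the transcripts of Hamp, Bmp6, Hfe, Tfr2 or Cp. Human sequences were not analysed here.

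Reads on human genes, recovered from the steps of the TPM values, ranged from 2670469 to 20302454 in the humanized livers, and reads on mouse genes from 1423985 to 44668272 in the WT livers. HuR KD replicate 4 and LacZ replicate 2 of the humanized livers stood apart, with 49.1% of TPM each on mitochondrial ribosomal RNA against 27.2% to 36.0% in the other 6. They were also the deepest, with 20302454 and 19891555 reads against 2670469 to 8342241 in the other 6. Their deviations from their group means correlated at 0.53, the highest of any HuR KD and LacZ pair of humanized livers. What these 2 livers share was not tested. Among WT livers, LacZ replicate 2 was the shallowest library and correlated with the others at a mean of 0.92, and HuR KD replicate 6 at 0.95, against 0.97 to 0.98 elsewhere. Where leaving out the odd livers of a set, or all 4 in a comparison of the sets, changed a call or a sign, the value without them is given beside the result. ELAVL1, which encodes HuR, was at 3.46 ± 0.76 TPM (SD, n = 4) in HuR KD and 5.67 ± 0.62 TPM (n = 4) in LacZ humanized livers, a difference of -0.59 on the log2(TPM + 1) scale (adjusted p = 0.21, limma; exact two-sided permutation p = 0.0286), with no overlap between the groups. Elavl1 was at 4.91 ± 0.69 TPM against 9.50 ± 0.79 TPM in WT livers (n = 6 each), a difference of -0.83 (adjusted p = 0.00105), again without overlap.

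With HuR knockdown, 3 of the 8 human members that could be tested fell and none rose at an unadjusted p below 0.05: ferritin heavy chain, transferrin receptor 1 and ceruloplasmin. These counts depended on the setting: TFR2 was also called, as higher, in 5 of 11 other settings (another pseudocount, no filter, median-of-ratios scaling, quantile normalization and voom on recovered reads), and CP was lost in 5 of 11. Over all 12738 human genes with a mean of at least 1 TPM, 7.87% were lower and 3.6% higher by the same test. In WT livers 2 of 9 mouse members fell and none rose, namely Hfe and Slc40a1, beside 6.94% lower and 9.09% higher of 15090 mouse genes. Of the human genes called, 31.3% were higher, or 47.5% with median-of-ratios scaling, and of the mouse genes 56.7%, or 48.0% with that scaling. In these fits no member fell in both sets, but ceruloplasmin was called lower in both with array weights, with voom and without the livers that stood apart. After Benjamini-Hochberg adjustment over all genes tested Hfe alone passed in WT livers (0.888% of mouse genes passed) and no human member did (0.212% of human genes passed), although FTH1 had an adjusted p from 0.038 to 0.39 over the other settings. The groups did not overlap for 3 human members, FTH1, TFRC and TFR2, and for 1 mouse member, Hfe, against 7.16% of human and 2.49% of mouse genes tested. The median difference over the members tested was -0.23 in humanized and -0.13 in WT livers, against -0.05 and 0.03 over all genes tested. In a bulk liver, fewer cells of a type and less RNA per cell cannot be told apart, and this holds for each of the genes described here.

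**Figure D1:**
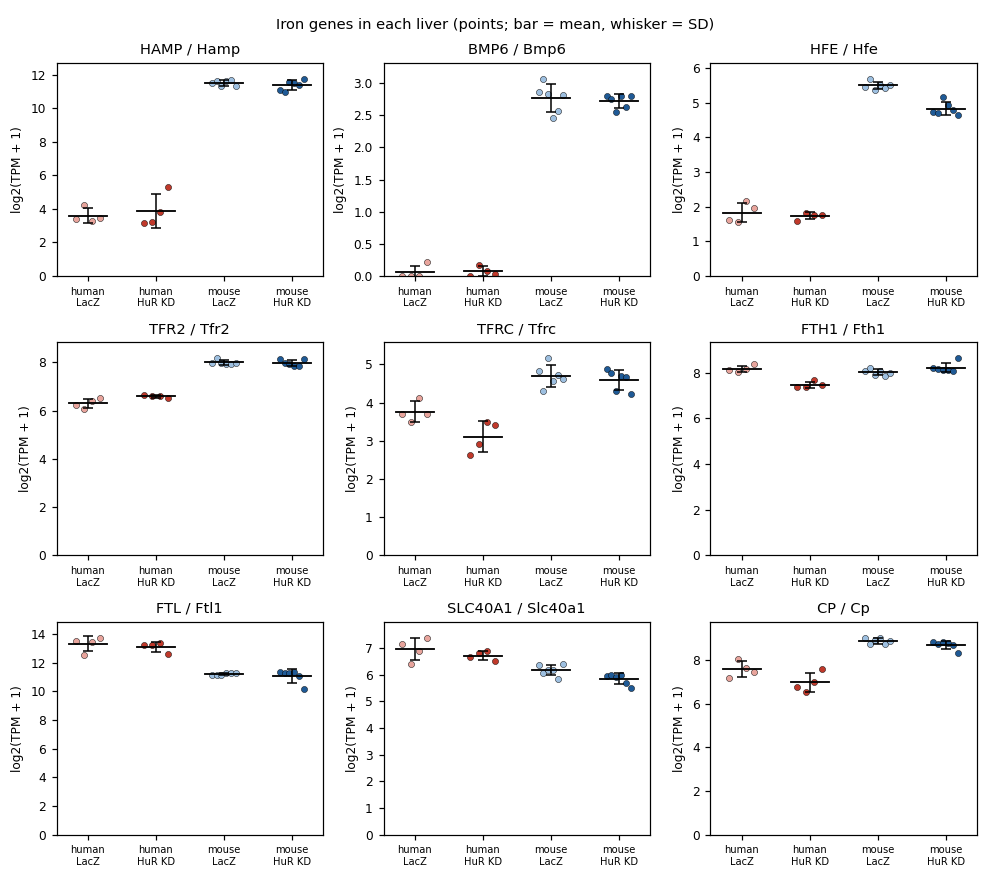
Level of each member, as log2(TPM + 1), in each of the 20 livers; points are livers, bars group means and whiskers SD, with human genes in red and mouse genes in blue and HuR KD in the darker shade. FTH1 and Hfe show the clearest separations, each between groups of 1 species only, while Hamp lies near 11 in all 12 WT livers and HAMP between 3 and 6 in the humanized livers.

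HAMP encodes hepcidin. In humanized livers HAMP was low and uneven. The HuR KD livers held 7.84, 8.46, 13.3 and 37.9 TPM and the LacZ livers 9.61, 18.1, 8.59 and 10.1 TPM, from 35 to 1204 reads a library. Replicate 4 of HuR KD and replicate 2 of LacZ, the livers with the high share of mitochondrial ribosomal RNA, were the highest of their groups, and the groups overlapped. The means were 16.9 ± 14.2 and 11.6 ± 4.4 TPM (SD, n = 4 each), a log2(TPM + 1) difference of 0.28 with SE 0.45 (exact permutation p = 0.71). Without HuR KD replicate 4 the difference was -0.19, and without both livers 0.03, so that the sign rested on 1 liver.

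Mouse Hamp was among the most abundant members in WT livers. It ranged from 1977 to 3456 TPM with a median of 2800 in HuR KD and from 2537 to 3337 TPM with a median of 3053 in LacZ livers, and the groups overlapped almost wholly. The difference was -0.14 with SE 0.14 (exact permutation p = 0.34). Set side by side with TPM rescaled to genes that are not mitochondrially encoded, control livers held 19.9 ± 11.7 TPM of HAMP and 2956 ± 346 TPM of Hamp (SD, n = 4 and 6), but the tables were normalized separately and these levels were not compared by a test.

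The mouse has a second hepcidin gene, Hamp2, that the human lacks. Hamp2 ranged from 4.76 to 31.3 TPM with a median of 22.5 in HuR KD and from 2.83 to 23.3 TPM with a median of 10.8 in LacZ livers. Most of its range was shared by the groups, and the difference of 0.88 with SE 0.50 did not pass (adjusted p = 0.43, limma; exact permutation p = 0.15). It passed the unadjusted threshold without LacZ replicate 2, at a difference of 1.12, and without HuR KD replicate 3, at 1.22.

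BMP6, the endothelial ligand that raises hepcidin, was close to absent from the human table, with 0 or 1 read in each of the 8 livers (0 to 0.162 TPM), and could not be tested. The 3 reads that a count of 0 still allows correspond to between 0.0715 and 0.508 TPM, depending on the library. Human endothelial marker genes were near 0 too: none of 10 reached a mean of 1 TPM, and their summed level was 0.231 to 0.879 TPM in HuR KD and 0.406 to 2.21 TPM in LacZ livers. Mouse Bmp6 ranged from 4.89 to 5.97 TPM with a median of 5.84 in HuR KD and from 4.51 to 7.39 TPM with a median of 6.07 in LacZ livers. The range of the former lay inside that of the latter, and the difference was -0.05 with SE 0.10 (exact permutation p = 0.67). All 10 mouse endothelial markers were detected, with summed levels of 228 to 278 TPM in HuR KD and 221 to 273 TPM in LacZ livers.

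HFE encodes a protein that associates with transferrin receptors and whose loss causes hereditary haemochromatosis. Mouse Hfe fell to 62.5% of control with HuR knockdown. It ranged from 24.2 to 35.0 TPM with a median of 26.2 in HuR KD and from 40.6 to 50.8 TPM with a median of 44.0 in LacZ livers. Every HuR KD liver was below every LacZ liver. The difference was -0.67 with SE 0.09 (p = 5.06e-06, adjusted p = 0.00425, limma; exact two-sided permutation p = 0.00216, the smallest that 6 against 6 livers can give), and it was between -0.73 and -0.63 when each liver was left out in turn. Human HFE was at 2.03, 2.56, 2.40 and 2.37 TPM in HuR KD and 2.08, 1.97, 3.48 and 2.92 TPM in LacZ livers, from 18 to 149 reads. These groups overlapped and the difference was -0.10 with SE 0.19 (exact permutation p = 0.57), on a scale that understates changes of genes this low. The difference between the 2 effects, humanized minus WT, was 0.57 with SE 0.17. It passed the unadjusted threshold and was just short of the adjusted threshold over the 8193 gene pairs tested (adjusted p = 0.052, from 0.018 to 0.16 over the other settings). The joint fit takes the same spread for both sets, and its SE of 0.17 is below the 0.19 of the humanized livers alone. For genes that vary more in humanized livers, p-values of the difference between effects can therefore be too small.

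TFR2 encodes the hepatocyte sensor of iron-loaded transferrin. TFR2 was at 99.1, 96.7, 95.1 and 90.7 TPM in HuR KD and 74.8, 66.3, 82.5 and 90.3 TPM in LacZ humanized livers. All HuR KD livers lay above all LacZ livers, the closest pair by less than 1 TPM. The difference of 0.29 with SE 0.13 missed the threshold in limma (p = 0.056, adjusted p = 0.45), while the exact two-sided permutation test gave p = 0.0286, the smallest that 4 against 4 livers allow. It passed the unadjusted threshold with log2(TPM + 0.1) and with no filter, with median-of-ratios scaling, quantile normalization and voom (0.36 each), and without LacZ replicate 4 (0.36), with adjusted p from 0.20 to 0.77 over all other settings. Mouse Tfr2 ranged from 231 to 282 TPM with a median of 246 in HuR KD and from 245 to 287 TPM with a median of 248 in LacZ livers. The groups overlapped and their difference was -0.01 with SE 0.07 (exact permutation p = 0.89). The 2 effects differed by 0.30 (adjusted p = 0.22), past the unadjusted threshold only, and this was lost in 9 of 20 fits that each left out 1 liver and in 3 of 9 other settings, among them the fit without the 4 livers that stood apart (0.24, adjusted p = 0.17). Under quantile normalization it passed the adjusted threshold as well (0.42, adjusted p = 0.047).

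TFRC encodes transferrin receptor 1, the main route of iron uptake in most cells. With HuR knockdown human TFRC fell to 62.1% of control. The HuR KD livers held 5.18, 6.59, 10.2 and 9.66 TPM and the LacZ livers 12.0, 10.2, 16.5 and 12.1 TPM. The groups did not overlap, though their nearest livers, at 10.17 and 10.20 TPM, almost touched. The difference was -0.65 with SE 0.22 (p = 0.018, adjusted p = 0.31, limma; exact permutation p = 0.0286), and it no longer passed without LacZ replicate 3, the highest liver (-0.52, adjusted p = 0.57). Mouse Tfrc ranged from 17.7 to 28.6 TPM with a median of 24.8 in HuR KD and from 18.9 to 34.8 TPM with a median of 24.5 in LacZ livers. The ranges nearly coincided, and the difference was -0.11 with SE 0.15 (exact permutation p = 0.53). The difference between the effects was -0.54 with SE 0.26 (adjusted p = 0.24); it passed unadjusted, and missed that threshold in 13 of 20 fits that each left out 1 liver and in 5 of 9 other settings.

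FTH1 encodes the ferritin heavy chain, the subunit that oxidizes iron as it enters the shell, and it gave the clearest contrast between the 2 sets of livers. Human FTH1 fell to 61.9% of control. The HuR KD livers held 168, 168, 205 and 174 TPM and the LacZ livers 277, 258, 288 and 331 TPM. The highest HuR KD liver was well below the lowest LacZ liver, and of the livers with a high share of mitochondrial ribosomal RNA, HuR KD replicate 4 lay inside its group and LacZ replicate 2 was the lowest LacZ liver. The difference was -0.69 with SE 0.13 (p = 0.000544, adjusted p = 0.088, limma; exact permutation p = 0.0286), and it ranged from -0.76 to -0.62 when each liver was left out in turn, with adjusted p from 0.044 to 0.25. Mouse Fth1 ranged from 268 to 398 TPM with a median of 285 in HuR KD and from 233 to 296 TPM with a median of 262 in LacZ livers. Its groups overlapped, with HuR KD replicate 6 alone above the highest LacZ liver by more than 1 TPM, and the difference was 0.20 with SE 0.10 (p = 0.057, limma; exact permutation p = 0.043). Without HuR KD replicate 6 and LacZ replicate 2 it was 0.16 (adjusted p = 0.12) and passed the unadjusted threshold.

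The effect of knockdown on FTH1 differed between humanized and WT livers by -0.89 on the log2(TPM + 1) scale with SE 0.16 (adjusted p = 0.00256). Of the 8 pairs that could be tested, 4 (FTH1, HFE, TFR2 and TFRC) had an unadjusted p below 0.05 and FTH1 alone an adjusted one, against 19.7% and 4.98% of all 8193 pairs. The adjusted p of FTH1 was from 0.00113 to 0.00823 over the fits that left out 1 liver and 0.000245 without the 4 livers that stood apart. Species, host strain, transplantation and the sequence of the short hairpin RNA all change together between the 2 sets of livers. So do the cells read. Kupffer cell and macrophage markers summed to at most 1.24 TPM for human genes and to at least 446 TPM in WT livers. The HuR mRNA left was 61.0% of control for ELAVL1 and 51.7% for Elavl1. The difference between these 2 effects, 0.24 with SE 0.17, did not pass (adjusted p = 0.48, limma). The TPM total differed too, as it held mitochondrially encoded genes in humanized livers only. Without those genes human FTH1 differed by -0.67 between HuR KD and LacZ livers. The difference between the sets kept its unadjusted call there, and its adjusted p was at most 0.024 over the other settings (limma). The parts of the factors that change together between the sets cannot be told apart.

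**Figure D2:**
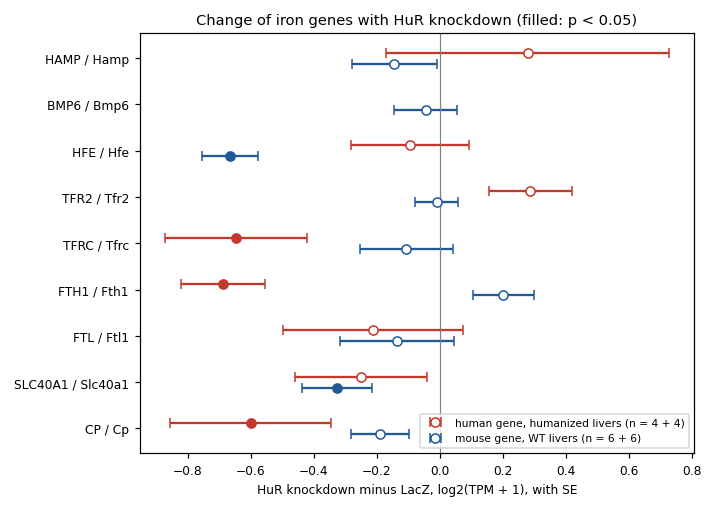
Difference between HuR KD and LacZ livers on the log2(TPM + 1) scale, with SE, for each human gene in humanized livers (red, 4 and 4 livers) and each mouse gene in WT livers (blue, 6 and 6 livers); filled points have an unadjusted p below 0.05 in limma. FTH1 lies at -0.69 and Fth1 at 0.20, while HFE lies at -0.10 and Hfe at -0.67; BMP6 was too low to be tested.

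FTL and Ftl1 encode the ferritin light chain, which helps the mineral core to form. FTL was the most abundant human member, at 9437, 9834, 10653 and 6110 TPM in HuR KD and 11779, 5989, 11163 and 13789 TPM in LacZ livers. The 2 lowest livers were those with the high share of mitochondrial ribosomal RNA, 1 in each group, and the groups overlapped. The difference was -0.21 with SE 0.29 (exact permutation p = 0.49). Without those livers it was -0.29 (adjusted p = 0.36), and under quantile normalization 0.04. Mouse Ftl1 ranged from 1133 to 2630 TPM with a median of 2510 in HuR KD and from 2216 to 2546 TPM with a median of 2402 in LacZ livers. HuR KD replicate 6 was far below the 11 other livers, which lay between 2186 and 2630 TPM. The difference was -0.13 with SE 0.18 (exact permutation p = 0.81), and 0.05 without that liver. The difference between the effects, humanized minus WT, was -0.08 (adjusted p = 0.93). Without the 4 livers that stood apart it was -0.33 and passed the unadjusted threshold only (adjusted p = 0.13).

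The ratio of the chains within a liver does not depend on how the library is scaled. Heavy chain TPM was 1.78%, 1.71%, 1.92% and 2.85% of light chain TPM in HuR KD and 2.35%, 4.31%, 2.58% and 2.40% in LacZ humanized livers. Within each group the odd liver was again the one with the high share of mitochondrial ribosomal RNA, and apart from HuR KD replicate 4 all HuR KD livers were below all LacZ livers. The mean log2 ratio differed by -0.48 (exact permutation p = 0.11), or by -0.44 without those 2 livers, where 3 against 3 cannot go below an exact p of 0.10. Each of the pair moved it the opposite way, to -0.65 without HuR KD replicate 4 (exact permutation p = 0.0286, the smallest that 3 against 4 livers allow) and to -0.28 without LacZ replicate 2 (exact permutation p = 0.20). In WT livers the ratio ranged from 10.6% to 35.2% with a median of 11.5% in HuR KD and from 9.38% to 13.0% with a median of 10.8% in LacZ livers. The top value was HuR KD replicate 6, and the groups otherwise overlapped. The mean log2 ratio differed by 0.34 (exact permutation p = 0.22), or by 0.12 without HuR KD replicate 6 and LacZ replicate 2 (p = 0.10).

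**Figure D3:**
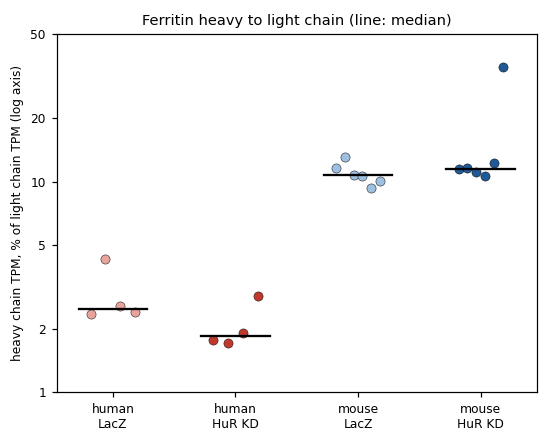
Ferritin heavy chain TPM as a percent of light chain TPM in each liver, on a log axis, with the group median as a line; 4 and 4 humanized livers (red) and 6 and 6 WT livers (blue). Human livers lie between 1.71% and 4.31%, and mouse livers between 9.38% and 13.0% apart from 1 HuR KD liver at 35.2%.

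Ferritin mRNAs have many near-identical copies in the genome that can take reads from them. Of 24 human heavy chain copies listed, 8 had a value above 0 in any liver, and together they held 7.27% to 10.1% of the FTH1 level. With these added, the heavy chain stood at 194 TPM in HuR KD and 313 TPM in LacZ livers, or 62.1% of control, with no overlap (181 to 223 against 284 to 355 TPM). Light chain copies held at most 0.906% of the FTL level, and FTLP3 and FTH1P20 were the highest human copies, at 70.9 and 6.92 TPM in HuR KD and 80.2 and 8.25 TPM in LacZ livers. In the mouse, 3 light chain copies held 2.41% to 6.25% of the Ftl1 level and the heavy chain copies at most 1.75% of that of Fth1. The highest were Ftl1-ps1, at 118 and 136 TPM in HuR KD and LacZ livers, and Fth-ps2, at 3.34 and 2.38 TPM. Ftl1-ps1 was at 25.6 TPM in HuR KD replicate 6 and between 116 and 161 TPM in the other HuR KD livers, the same low liver as for Ftl1.

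SLC40A1 encodes ferroportin, the exporter of cellular iron. Mouse Slc40a1 fell to 79.4% of control. It ranged from 44.5 to 62.4 TPM with a median of 60.6 in HuR KD and from 56.7 to 83.3 TPM with a median of 70.4 in LacZ livers. The groups overlapped only through LacZ replicate 5, the lowest LacZ liver. The difference was -0.33 with SE 0.11 (p = 0.011, adjusted p = 0.17, limma; exact permutation p = 0.017) and passed unadjusted in each of 12 fits that left out 1 liver. Kupffer cells express ferroportin as well. The summed level of 10 Kupffer cell and macrophage markers, of which 9 had a mean of at least 1 TPM and none was at 0 throughout, was 446 to 748 TPM in HuR KD and 624 to 851 TPM in LacZ livers, and its part in the result was not tested. Human SLC40A1 was at 99.5, 110, 116 and 89.5 TPM in HuR KD and 140, 83.7, 117 and 166 TPM in LacZ livers. The LacZ livers spread to both sides of the HuR KD livers, and the difference was -0.25 with SE 0.21 (exact permutation p = 0.31), or -0.43 without LacZ replicate 2, where it passed unadjusted (adjusted p = 0.26). The effects in the 2 sets differed by 0.08 with SE 0.22 (adjusted p = 0.90), and by -0.08 without the 4 livers that stood apart.

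CP encodes ceruloplasmin, the copper protein that oxidizes iron as it leaves cells. Human CP was at 109, 92.5, 126 and 190 TPM in HuR KD and 143, 263, 200 and 172 TPM in LacZ livers. The highest liver of each group was again the one with the high share of mitochondrial ribosomal RNA, and the groups overlapped through it. CP fell to 66.6% of control, a difference of -0.60 with SE 0.25 (p = 0.042, adjusted p = 0.42, limma; exact permutation p = 0.086). That call was lost in 6 of 8 fits that left out 1 liver and in 5 of 11 other settings, among them the one that left mitochondrially encoded genes out of the TPM total (-0.58, adjusted p = 0.82). Without both livers the difference was -0.65 (adjusted p = 0.15), past the unadjusted threshold. Mouse Cp ranged from 318 to 452 TPM with a median of 427 in HuR KD and from 423 to 519 TPM with a median of 472 in LacZ livers. The groups overlapped, with HuR KD replicate 6 lowest, and the difference was -0.19 with SE 0.09 (p = 0.060, limma; exact permutation p = 0.048). It passed the unadjusted threshold in 4 of 11 other settings, among them without HuR KD replicate 6 and LacZ replicate 2 (-0.14, adjusted p = 0.20). The effects differed by -0.41 with SE 0.24 (adjusted p = 0.37). Without the 4 livers that stood apart they differed by -0.50 and passed the adjusted threshold (adjusted p = 0.040), and with array weights by -0.44, past the unadjusted one only (adjusted p = 0.22).

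Order of level was read within each table. In LacZ humanized livers FTL was highest, followed by FTH1, CP, SLC40A1 and TFR2, whose neighbours in this order overlapped in range, then TFRC and HAMP, which overlapped as well, and last HFE and BMP6. In LacZ WT livers the order was Hamp and Ftl1, which overlapped, then Cp, then Fth1 and Tfr2, which overlapped, and then Slc40a1, Hfe, Tfrc and Bmp6, each range apart from the next.

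Markers of other cell types were looked at beside these values. Human hepatocyte markers were all detected, with summed levels of 43530 to 73045 TPM in HuR KD and 46401 to 94649 TPM in LacZ livers, and human Kupffer cell, T and NK cell, erythroid and neutrophil markers had no gene with a mean of 1 TPM. CLEC4F, VSIG4, MARCO, C1QA and C1QB were at 0 in every humanized liver, as were HBA1 and SLC4A1, S100A8 and ELANE, and all T and NK cell markers but PRF1. The human genes of the stellate cell list were low: 2 of 7 reached a mean of 1 TPM, and DES and COLEC10 were at 0. Their summed level was 2.73 to 4.83 TPM in HuR KD against 5.21 to 7.10 TPM in LacZ livers, without overlap. Stellate cells of these livers are those of the mouse host and mouse genes were not tabulated, so this sum is not a measure of stellate cells. Its relation to the falls of FTH1, TFRC and CP was not tested. Summed levels of interleukin-6 type acute phase genes, which rise with the inflammation that also raises hepcidin, overlapped between HuR KD and LacZ in both sets, at 2924 to 4128 against 3125 to 4674 TPM in humanized and 5610 to 10589 against 7844 to 10511 TPM in WT livers. In WT livers all 7 stellate cell markers were detected and their sums overlapped (114 to 160 against 130 to 172 TPM), as did those of hepatocyte (83933 to 98542 against 78890 to 91465 TPM) and erythroid markers (168 to 564 against 231 to 355 TPM) and those of T and NK cell and neutrophil markers.

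Around the members, 62 further human and 61 further mouse genes of iron and heme handling were read from a list. Of the 53 human genes tested, 3 rose and 2 fell, with a median difference of -0.03, and of the 57 mouse genes 3 rose and 8 fell, with a median of 0.02. These calls were 9.43% of the human and 19.3% of the mouse genes, near the 11.5% and 16% called in either direction over all genes, so that the counts do not set the list apart. None passed the adjusted threshold in either set in these fits, though some of the genes named below did in other settings. The 5 and 11 above are the counts at an unadjusted p below 0.05 in limma. In humanized livers the calls were spread over the groups, 2 of 19 in hepcidin control, 1 of 9 in uptake and transport, 1 of 6 in iron regulation and ferritin loading, 1 of 7 in mitochondrial iron and 0 of 12 in heme. In WT livers they lay in hepcidin control, with 6 of 18, uptake and transport, with 3 of 12, and iron regulation, with 2 of 6, and none was found among 7 mitochondrial and 14 heme genes. ERFE, HEPH, FTMT and HMOX2 were listed at 0 in every humanized liver. Mouse Hmox2 had means of 54.7 TPM in HuR KD and 51.1 TPM in LacZ WT livers. Why HMOX2 was at 0 was not tested, and the 0 is not taken as absence from hepatocytes.

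In humanized livers HJV, which encodes hemojuvelin, the co-receptor through which hepatocytes receive BMP signals, ranged from 153 to 199 TPM in HuR KD and from 107 to 128 TPM in LacZ livers. It was the 1 listed human gene outside the members whose groups did not overlap. It rose by 0.58 with SE 0.13 (p = 0.00184 and adjusted p = 0.13 in limma, exact permutation p = 0.0286). Over the other settings its adjusted p was from 0.034 to 0.57. HP, the haemoglobin scavenger haptoglobin, rose by 0.65 (179 to 260 against 112 to 193 TPM, adjusted p = 0.27). NEO1, a partner of hemojuvelin, fell by 0.48 (2.62 to 4.02 against 3.95 to 5.42 TPM, adjusted p = 0.31). PCBP1, a chaperone that delivers iron to ferritin, fell by 0.37 (25.6 to 30.0 against 29.4 to 39.8 TPM, adjusted p = 0.34), and NFS1, the cysteine desulfurase of iron-sulfur cluster assembly, rose by 0.54 (5.39 to 11.0 against 4.10 to 6.11 TPM, adjusted p = 0.37). The calls of NEO1, PCBP1 and NFS1 were lost without mitochondrially encoded genes, and those of PCBP1 and NFS1 each in 4 of 8 fits that left out 1 liver. That of PCBP1 was lost in 5 of 11 other settings in all, the rest being median-of-ratios scaling, quantile normalization, the replicate block and voom. That of NFS1 was also lost without HuR KD replicate 4 and LacZ replicate 2 (0.55, adjusted p = 0.36).

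Of the 18 hepcidin control genes tested in WT livers 5 fell and 1 rose, beside 6.94% lower and 9.09% higher of all mouse genes tested. Of the 18, 11 had a difference above 0, and the median over the list was 0.01. A change of BMP signalling was not tested. Smad7, an inhibitory SMAD that BMP signalling itself induces, ranged from 5.98 to 9.61 TPM with a median of 7.18 in HuR KD and from 9.44 to 20.3 TPM with a median of 14.9 in LacZ livers. Its groups met only at their ends, and it fell by 0.80 with SE 0.17 (p = 0.000458, adjusted p = 0.050, limma; exact permutation p = 0.00433). Smad1, which carries the BMP signal to the nucleus, ranged from 5.43 to 6.69 TPM with a median of 5.90 in HuR KD and from 7.04 to 9.14 TPM with a median of 7.74 in LacZ livers. It was the 1 listed mouse gene outside the members without overlap, and fell by 0.31 with SE 0.07 (p = 0.000954 and adjusted p = 0.062 in limma, exact permutation p = 0.00216). Over the other settings the adjusted p was from 0.012 to 0.12 for Smad7 and from 0.0068 to 0.12 for Smad1. The other three, chosen for mention after their values were seen, were Id1, a common BMP target gene (-0.56, exact permutation p = 0.063), Smad6, the second inhibitory SMAD (-0.44, exact p = 0.037), and Atoh8, a transcription factor that responds to iron in liver (-0.42, exact p = 0.026). Acvr1, a BMP type I receptor, rose by 0.23 (adjusted p = 0.23) and was named after its values were seen. The calls of Id1, Smad6, Atoh8 and Acvr1 were each lost without HuR KD replicate 6 and LacZ replicate 2, with adjusted p from 0.23 to 0.34. Of the 12 fits that left out 1 liver, Id1 was lost in 8, Atoh8 in 4 and Smad6 and Acvr1 in 3 each, whereas Smad7 and Smad1 passed in all 12. Hamp in the same livers differed by -0.14, as given above, and did not pass.

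Metal transporters Slc11a2 (8.16 to 10.1 against 9.47 to 12.5 TPM) and Slc39a8 (7.50 to 9.27 against 8.69 to 12.5 TPM) fell in WT livers by 0.23 and 0.29 (adjusted p = 0.14 and 0.17 in limma, exact permutation p = 0.0087 and 0.022). Over the other settings the adjusted p of Slc11a2 was from 0.029 to 0.22. Hpx, the plasma heme scavenger hemopexin, named after its values were seen, fell by 0.54 (adjusted p = 0.23), and its call was lost in 3 of 12 fits that left out 1 liver (without HuR KD replicate 6, LacZ replicate 4 or LacZ replicate 5). Aco1, which encodes iron regulatory protein 1, the protein that binds the hairpins shown above, ranged from 128 to 178 TPM in HuR KD and from 108 to 128 TPM in LacZ livers and rose by 0.25 (adjusted p = 0.17; exact permutation p = 0.0043). Pcbp1 rose by 0.18 (32.2 to 44.0 against 31.9 to 34.5 TPM, adjusted p = 0.21 in limma, exact permutation p = 0.015). The effects on PCBP1, whose call in humanized livers was lost in the settings named above, differed between the sets by -0.55 with SE 0.14 (adjusted p = 0.021). The effects also differed for HJV, by 0.57 (adjusted p = 0.018), and for SMAD7, by 1.12 (adjusted p = 0.018), where human SMAD7 was at 5.10 to 7.81 TPM in HuR KD and 3.26 to 6.71 TPM in LacZ livers. These were the 3 of 51 further iron pathway pairs tested that passed the adjusted threshold, and 14 had an unadjusted p below 0.05, beside the 4.98% and 19.7% of all pairs given above. All 3 kept their unadjusted call in every fit that left out 1 liver and in 9 other settings, with adjusted p from 0.0051 to 0.074 for PCBP1, 0.0020 to 0.17 for HJV and 0.0049 to 0.14 for SMAD7 over those settings, and 0.054 for SMAD7 without the 4 livers that stood apart.

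**Figure D4:**
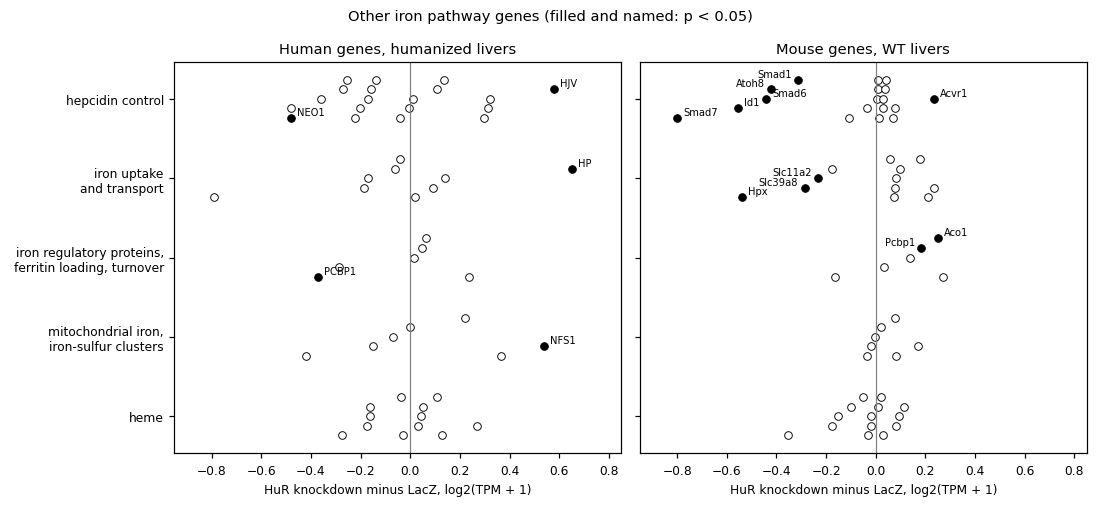
Difference between HuR KD and LacZ livers on the log2(TPM + 1) scale for the 53 human (left) and 57 mouse (right) further iron pathway genes tested, by group; filled, named points have an unadjusted p below 0.05 in limma. In WT livers 5 filled points of hepcidin control lie between -0.80 and -0.31, and in humanized livers HJV and HP lie above 0.5.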

How the data were processed

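Livers of humanized TK-NOG and WT C57BL/6 mice were sequenced as stranded total RNA, paired-end. Per the study's methods, reads were trimmed with cutadapt (the submitters' processing notes list Trim Galore) and aligned with HISAT2, WT livers to GENCODE M23 and humanized livers to a joint human (v32) and mouse index, and featureCounts of the Subread package counted them. Builds in the notes were mm10 and GRCh38. The authors deposited TPM per gene, 1 table per set. The humanized table lists 37 mitochondrially encoded genes, which hold 29.0% to 51.8% of TPM, while the same genes are at 0 in the WT table, which changes the total that each level is relative to.

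Genes with a mean of at least 1 TPM were fitted on log2(TPM + 1) with limma 3.58.1 in R 4.3.3 (eBayes with trend), each set apart, with calls at an unadjusted p below 0.05 and Benjamini-Hochberg values over all genes tested. A joint fit over 8193 genes paired by symbol tested the difference between the sets. It used the same residual variance for both sets, which can make its p-values too small for genes that vary more in humanized livers. Exact two-sided permutation tests used 70 or 924 groupings of livers, and p-values measure the spread between these livers. Named genes were the 9 members in both tables, HuR, Hamp2, the called pathway genes with the smallest p (at most 6 per set) and the 2 highest ferritin copies; the members and lists were chosen with earlier results of these data known. Whole reads were recovered from the TPM steps for 18702 human and 25110 mouse genes, 100% of those above 0 in at least 4 livers, within a tolerance of 0.02 reads; reads were 99.1% and 99.9% right on simulated data. On simulated data the fit recovered 92.8% and 95.9% of genes shifted by 1 on the log2 scale. The simulation gave every gene the same dispersion and held no outlying livers. How often shifts as small as those of the members would be recovered was not tested. Alternatives were another pseudocount, filters, scalings, variance models, voom on the recovered reads, a replicate block and leaving out livers. Mouse positions come from GENCODE M21 (GRCm38).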

Additional observations from a re-analysis of the deposited data

Results flagged for a closer look

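Of the groups of livers examined for a value far from its group, 8 were flagged among 40, where chance flags about 1 in 20 groups. HuR KD replicate 6 of the WT livers gave 4 of these: Fth1 at 398 TPM against 268 to 296 TPM in the other HuR KD livers, Ftl1 at 1133 TPM against 2186 to 2630 TPM, Cp at 318 TPM against 408 to 452 TPM, and a ferritin heavy to light chain ratio of 35.2% against 10.6% to 12.3%. In WT LacZ replicate 2, the shallowest library, Tfr2 was at 287 TPM against 245 to 251 TPM in the others. In humanized LacZ replicate 2, HAMP was at 18.1 TPM against 8.59 to 10.1 TPM, and the heavy to light chain ratio was 4.31% against 2.35% to 2.58%. BMP6 in humanized LacZ replicate 4, at 0.162 TPM, rested on 1 read where the others had 0. The causes were not tested.

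The effect of HuR knockdown on ferritin heavy chain differed between humanized and WT livers by -0.89 on the log2(TPM + 1) scale (adjusted p = 0.00256 over 8193 pairs), with human FTH1 lower in 4 of 4 HuR KD livers than in every LacZ liver and mouse Fth1 overlapping between groups.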

How the results depend on the processing

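All values are log2(TPM + 1) differences or counts of genes called. A difference between the species here means humanized minus WT livers, where host strain, transplantation and the short hairpin RNA change as well. With an adjusted p as the threshold, the members called went from 3 to 0 in humanized and from 2 to 1 in WT livers, the further pathway genes from 5 and 11 to 0 and 0, the members with a difference between the species from 4 to 1, and HuR mRNA in humanized livers (-0.59) no longer passed. Without mitochondrially encoded genes, 3 pathway genes were called in humanized livers and 2 members differed between the species. In WT livers 4 members were called (Hfe, Slc40a1, Cp and Fth1, the last higher) with array weights, with voom on the recovered reads, without LacZ replicate 2, and, chosen after seeing the data, without the 2 livers HuR KD replicate 6 and LacZ replicate 2. Without the 2 livers HuR KD replicate 4 and LacZ replicate 2, also chosen after seeing the data, 9 pathway genes were called in humanized livers. Over all genes, array weights called 4205 mouse genes against 2418 and made 67.9% of them higher, and adjusted calls ranged from 0 to 88 human genes (main 27) and from 17 to 1717 mouse genes (main 134).

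Signs turned only for differences that did not pass: FTL (0.041, quantile normalization), HFE (0.023, voom), Ftl1 (0.026, array weights; 0.039 without the 2 WT livers), Bmp6 (0.016, voom), Tfr2 (0.00083, voom), the species difference of FTL (0.016, median-of-ratios; 0.20, quantile normalization) and that of SLC40A1 (-0.085 without the 4 livers). Leaving out each liver in turn, the members called were 1 to 3 in humanized (1 without LacZ replicate 3) and 2 to 4 in WT livers, the pathway genes 3 to 10 in humanized livers (10 without LacZ replicate 2, 3 without LacZ replicate 3) and the species differences 2 to 5. The log2 ratio of ferritin chains in humanized livers differed by -0.65 to -0.28, and passed at -0.65 alone, without HuR KD replicate 4. Values ranged from -0.19 to 0.52 for HAMP, -0.18 to 0.015 for HFE, -0.11 to 0.015 for Bmp6, -0.042 to 0.025 for Tfr2 and -0.19 to 0.053 for Ftl1, and for the species differences from -0.047 to 0.67 for HAMP, -0.33 to 0.10 for FTL and -0.11 to 0.22 for SLC40A1. FTH1, Hfe and the species difference of FTH1 kept their direction and their unadjusted call under every setting run. Deviations of livers with the same replicate number correlated at -0.25 to 0.14 in humanized and -0.14 to 0.21 in WT livers, so the numbers were not taken as pairs. With the replicate block 2 members were called in humanized livers (CP was lost) and 2 in WT livers, with Hfe at an adjusted p of 0.083, and 5 and 12 pathway genes. The smallest libraries put 18 reads on HFE and 17 on Bmp6, which limits what could be seen of low genes.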
